A study of Homo sapiens with 6 samples.

Results

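The genes described here are 10 members of the interleukin-6 (IL6) cytokine family and its signalling route: 4 ligands (IL6, LIF, IL11 and CLCF1), 4 receptor chains (IL6R, IL6ST, LIFR and OSMR), the transcription factor STAT3 and its feedback inhibitor SOCS3. All 10 were found by symbol among 54261 symbols in the count table, and all 10 were among the 13896 genes with enough counts to be tested. The family was chosen from results of the same comparison, in which IL6 had the lowest log2 fold change of the 10747 tested genes whose mean reached 2 log2 CPM (the usual depth-scaled count, on library sizes scaled by the TMM method). The members' values are therefore a description, and their calls are no independent evidence.

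RNA sequencing counts came from 6 libraries of T24, an established line of human bladder cancer cells. In 3 control libraries the cells carried the lentivirus HBLV-ZsGreen-PURO, and in 3 knockdown libraries the lentivirus with MTHFD2shRNA2, the second of several short hairpins against MTHFD2, a mitochondrial enzyme of folate metabolism. Although the design text calls this a knockout, the labels name a hairpin. Cells of both groups thus carried ZsGreen, a green fluorescent protein, and a puromycin resistance gene, and both were selected with puromycin. A single hairpin was sequenced, so effects of MTHFD2 loss and of that hairpin's own sequence cannot be told apart. Whether replicates came from separate cultures is not given in the sources used here, so the tests measure the spread between these libraries, which may be technical.

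Cytokines of this family signal through receptor complexes that contain the shared chain gp130, the product of IL6ST. IL6 binds its own chain IL6R first, LIF and CLCF1 use LIFR, and oncostatin M uses OSMR or LIFR. The complexes activate JAK kinases, which phosphorylate STAT3, and STAT3 raises SOCS3, which then shuts the receptor down. In bladder cancer, IL6 is known as a cytokine made by tumour cells and by the stroma around them.

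A stretch of 197 bases upstream of the RefSeq start of IL6 is shown because the factors known to bind there are described further on. The 53 bases between the stretch and that start lie in a GENCODE exon of IL6 and are not shown. The NF-kB match begins 73 bases before the RefSeq start. GENCODE also has a longer IL6 transcript that starts upstream of the stretch, at 22725884, in which these bases are intronic. They are from the RefSeq promoter table (GRCh38.p14, chr7:22726950-22727146, plus strand). Capitals mark, from left to right, a match to the cyclic AMP response element core, a match to the C/EBP motif and a match to the NF-kB motif.

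IL6: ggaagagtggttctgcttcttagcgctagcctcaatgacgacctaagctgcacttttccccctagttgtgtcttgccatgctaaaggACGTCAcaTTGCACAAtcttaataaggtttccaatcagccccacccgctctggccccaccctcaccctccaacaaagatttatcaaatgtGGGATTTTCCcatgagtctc

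The motifs were searched on both strands. The response element core was TGACGT. The C/EBP motif was TTGCNNAA and the STAT motif TTCNNNGAA, with the consensus letters used for NF-kB. For AP-1 the letters were TGANTCA. Of 35116 RefSeq windows of 250 bases before a start, 9.96% held the NF-kB motif, 9.05% the C/EBP motif, 7.10% the response element core, 6.57% the STAT motif and 6.57% the AP-1 motif. The IL6 window was the only member's window with the first 3 together. Of the 10 members, 8 had 11 windows in the table. A STAT match lay in the windows of 2 of the 3 LIFR starts, and these 30-base stretches (minus strand, chr5:38595551-38595580 and chr5:38557630-38557659) are shown with the match in capitals, since LIFR is the member that rose.

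LIFR, first start: ccattactagTTCCTTGAAccacaatccaa
LIFR, second start: gctttggagtTTCATCGAAaggtctttaaa

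A match describes letters only and is not evidence of binding. Which LIFR start T24 cells use was not tested.

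Library totals lay between 17801990 and 19978392 counts, and 3 counts, the most that a count of 0 allows, equal 0.149 to 0.171 CPM. MTHFD2 counts were 3241, 3613 and 3417 in controls against 538, 667 and 686 after knockdown, the direction that the labels state. Epithelial and urothelial markers were mixed: KRT7 (210 CPM in the controls), KRT8 and KRT18 were abundant, PPARG (16.0 CPM) and UPK1B (4.92 CPM) were present, UPK1A was low and rose from 6, 8 and 9 counts to 20, 23 and 37, and KRT19, GATA3, KRT5, TP63, UPK2 and UPK3A had at most 6 counts in any library. Fibroblast markers stood apart: the 12 listed summed to 7.81 to 10.6 CPM in the controls and to 51.6, 13.1 and 43.7 CPM in knockdown replicates 1, 2 and 3. The 10 leukocyte markers summed to 2.60 to 3.70 CPM in the controls and 1.79 to 3.83 CPM in the knockdown libraries, and the 7 endothelial markers to 2.18 to 3.07 and 1.18 to 1.76 CPM. The 12 urothelial markers, mostly keratins by level, summed to 2110 to 2518 CPM in the controls and to 1003 to 1322 CPM after knockdown. The part of these shifts in the members' values was not tested, and values from knockdown replicate 2 alone are given beside the members that passed or that it changed. That fit holds 1 knockdown library. An SE printed for it takes its spread from the controls and holds none between knockdown libraries.

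Of the 10 members, 4 passed the edgeR threshold (Benjamini-Hochberg adjusted p under 0.05 over all tested genes) downward (IL6, LIF, CLCF1 and SOCS3) and 1 upward (LIFR), against 7.58% of all tested genes downward, 9.71% upward and 17.3% in either direction. Nothing is read from these shares, since the family was picked with this comparison known. Leaving out control replicate 1 or 3 or knockdown replicate 2 reduced the count to 2, and leaving out knockdown replicate 3 to 3. IL6 and LIFR passed in every fit that left out 1 library. The CPM of the 2 groups did not overlap for 7 members, and for 39.1% of all tested genes. The median log2 fold change was -0.30 over the members and 0.01 over all tested genes.

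**Figure D1:**
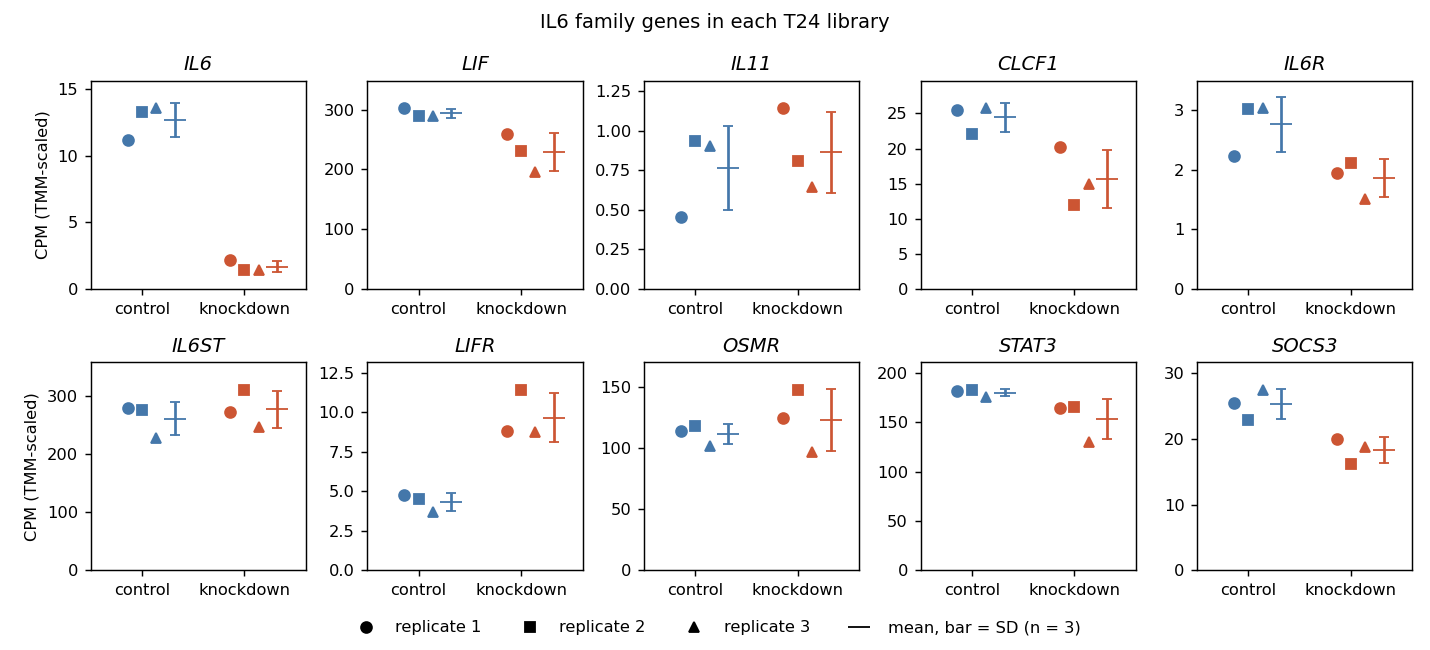
CPM on TMM-scaled library sizes (vertical axis, from 0) of the 10 genes in the 3 control and 3 knockdown libraries, with the mean and SD of each group beside the points. IL6 lies between 11.2 and 13.6 CPM in the controls and between 1.41 and 2.19 CPM after knockdown, and LIFR is the member whose knockdown libraries lie above all controls.

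Among the ligands, IL6 changed most. IL6 (ENSG00000136244, GRCh38 chromosome 7, 22725884 to 22732002, plus strand) had control counts of 197, 256 and 256 and knockdown counts of 44, 28 and 27. Every knockdown library was far below every control, and knockdown replicate 1 was the highest of the 3. The levels were 12.7 ± 1.29 CPM and 1.68 ± 0.438 CPM (SD, n = 3 each), 7.52-fold lower after knockdown (log2 fold change -2.91 ± 0.20, SE). Knockdown replicate 2 alone, the one with few fibroblast marker counts, gave -3.17 ± 0.26 against the 3 controls, and the 6 fits that left out 1 library gave -3.15 to -2.80. In these bulk libraries, fewer cells that make IL6 and less IL6 RNA per cell cannot be told apart.

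LIF, a ligand that signals through LIFR and gp130 and is best known for holding embryonic stem cells undifferentiated, was the member with the highest level per exon length in both groups, though after knockdown IL6ST had the higher CPM. It held 5310, 5567 and 5465 counts in the controls and 5222, 4588 and 3661 after knockdown, or 303, 289 and 290 CPM against 260, 231 and 196 CPM. All knockdown libraries were below all controls once scaled, by a small margin for knockdown replicate 1. The log2 fold change was -0.36 ± 0.11 (SE), and -0.35 for knockdown replicate 2 alone. Its call was lost in 5 of 6 fits with a library left out, those without control replicate 1, 2 or 3 or knockdown replicate 2 or 3, where the log2 fold change lay between -0.38 and -0.26.

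CLCF1, a ligand that acts through the ciliary neurotrophic factor receptor, LIFR and gp130, held 448, 424 and 485 counts in the controls and 406, 238 and 279 after knockdown. The groups did not overlap in CPM, and knockdown replicate 1 stood nearest to the controls. The levels of 24.4 ± 2.08 and 15.7 ± 4.15 CPM gave a log2 fold change of -0.64 ± 0.17 (SE). It no longer passed in 4 fits, those that left out control replicate 1 or 3 or knockdown replicate 2 or 3 (log2 fold change -0.61 to -0.48). With knockdown replicate 2 alone it was -1.03 ± 0.17.

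IL11, a ligand for IL11RA and gp130, was near the limit of measurement. Its counts were 8, 18 and 17 in the controls and 23, 16 and 12 after knockdown, so the groups overlapped, with control replicate 1 the lowest and knockdown replicate 1 the highest. The log2 fold change of 0.17 ± 0.39 (SE) did not pass, and it changed sign without control replicate 1 (-0.09) or without knockdown replicate 1 (-0.08).

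The balance among the 4 ligands shifted with IL6. IL6 made up 3.83 ± 0.46% of the summed counts of the 4 ligands in the controls and 0.675 ± 0.0989% after knockdown (SD, n = 3). LIF counts were 27.0, 21.7 and 21.3 times those of IL6 in the control libraries and 119, 164 and 136 times in the knockdown libraries.

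Of the 4 receptor chains, 1 passed the threshold, upward. LIFR, the chain shared by LIF, CLCF1 and oncostatin M, held 84, 87 and 70 counts in the controls and 177, 227 and 164 after knockdown. Every knockdown library was above every control, with knockdown replicate 2 the highest. LIFR (ENSG00000113594, GRCh38 chromosome 5, 38474963 to 38608354, minus strand) went from 4.34 ± 0.557 to 9.68 ± 1.53 CPM, 2.23-fold higher (log2 fold change 1.16 ± 0.18, SE). Values ranged from 1.02 to 1.22 with a library left out, and knockdown replicate 2 alone gave 1.39 ± 0.20. In knockdown replicates 1, 2 and 3 LIFR was at 8.80, 11.4 and 8.79 CPM. Replicate 2 had the lowest fibroblast marker sum of the 3, 13.1 CPM, which was still above every control. Any link between them was not tested.

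IL6ST, which encodes gp130, held 4918, 5314 and 4306 counts in the controls and 5489, 6186 and 4628 after knockdown. These ranges overlapped, and the log2 fold change of 0.08 ± 0.12 (SE) did not pass. It was -0.01 without control replicate 3 and -0.01 without knockdown replicate 2. Set against LIFR in the same library, IL6ST counts were 58.5, 61.1 and 61.5 times those of LIFR in the controls and 31.0, 27.3 and 28.2 times after knockdown.

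OSMR, the oncostatin M receptor chain, held 2002, 2272 and 1923 counts in the controls and 2513, 2933 and 1814 after knockdown. Knockdown replicate 3 was below all controls and the others above them, and the log2 fold change of 0.15 ± 0.14 (SE) did not pass. Knockdown replicate 2 alone gave 0.40, and without that library the value was -0.01.

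IL6R, the chain that binds IL6 itself, was scarce. It held 39, 58 and 57 counts in the controls and 39, 42 and 28 after knockdown, or 2.22, 3.02 and 3.03 CPM against 1.94, 2.12 and 1.5 CPM. The knockdown libraries lay just below the controls without overlap. The log2 fold change was -0.57 ± 0.25 (SE) and did not pass. The counts of gp130 were 97.8 ± 25.8 times those of IL6R in the controls and 151 ± 12.7 times after knockdown.

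STAT3, the factor that all these receptors activate, held 3180, 3518 and 3305 counts in the controls and 3313, 3273 and 2417 after knockdown. In CPM all knockdown libraries were below all controls, with knockdown replicate 3 the lowest at 129 CPM. The log2 fold change of -0.23 ± 0.11 (SE) did not pass. RNA counts do not measure STAT3 phosphorylation.

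SOCS3, which STAT3 induces and which blocks the gp130 complex, fell from 447, 439 and 517 counts to 400, 321 and 351. The groups did not overlap in CPM, at 25.3 ± 2.33 and 18.3 ± 1.90 (SD, n = 3), and the log2 fold change was -0.47 ± 0.13 (SE). It no longer passed when control replicate 1 or 3 or knockdown replicate 2 was left out, at -0.47 to -0.39, and knockdown replicate 2 alone gave -0.65.

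**Figure D2:**
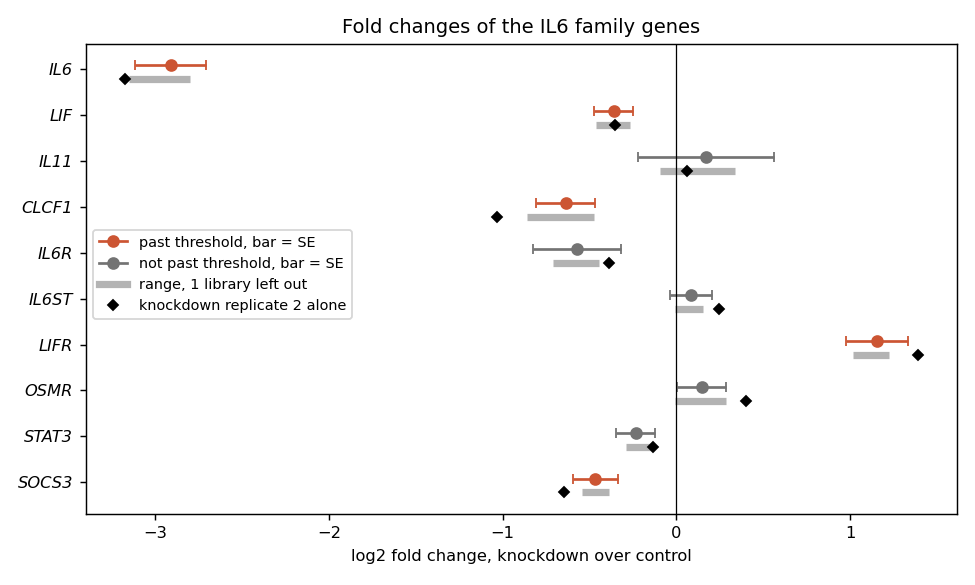
Log2 fold change, knockdown over control (horizontal axis), of each member in the fit over all genes, with SE bars, coloured where the edgeR threshold was passed. The grey band gives the range with 1 library left out and the diamond the value of knockdown replicate 2 alone; IL6 at -2.91 and LIFR at 1.16 stand clear of 0 in all of them.

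To compare levels between genes, CPM was divided by the length of all annotated exons of each gene in GENCODE 29, which may not be the annotation used for counting. On this scale LIF led in the controls at 74.1 ± 1.87 CPM per kb, followed by IL6ST at 28.2 ± 3.09, STAT3 at 20.4 ± 0.44 and OSMR at 15.5 ± 1.16. CLCF1 (12.4 ± 1.05), SOCS3 (9.24 ± 0.85) and IL6 (6.14 ± 0.625) came next. IL6R (0.427 ± 0.0715), LIFR (0.366 ± 0.0470) and IL11 (0.286 ± 0.100) were at the bottom. Of the 9 neighbouring pairs in this order, the libraries overlapped in 2, IL6R with LIFR and LIFR with IL11. After knockdown IL6, at 0.813 ± 0.212 CPM per kb, stood beside LIFR at 0.816 ± 0.129, and 4 of the 9 neighbouring pairs overlapped (STAT3 with OSMR, CLCF1 with SOCS3, LIFR with IL6, and IL11 with IL6R). T24 cells held much RNA for gp130 and OSMR and little for IL6R and LIFR, in both groups.

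**Figure D3:**
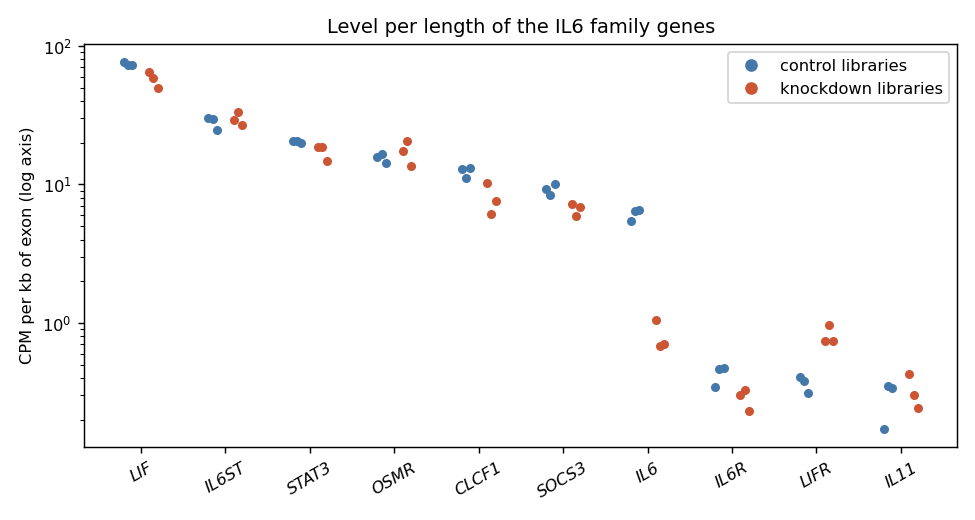
CPM per kilobase of annotated exon (vertical log axis) of the 10 genes in each library, ordered by the control mean. IL6 drops from 6.14 CPM per kb, below SOCS3 without overlap, to the level of LIFR, while LIF leads in both groups at 74.1 and 57.7 CPM per kb.

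Some members share exon bases with a gene on the other strand, and the strandedness of the libraries is not given in the sources used here, so reads there could belong to either. IL6 shares 428 of its 2069 exonic bases with the antisense gene AC073072.1 and 46 with STEAP1B, which held 29 counts over all 6 libraries. LIFR shares 629 of 11864 with LIFR-AS1, which held 42. OSMR shares 229 of 7174 with RICTOR, whose log2 fold change was 0.53.

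The rest of the pathway was followed in 8 lists of 89 genes, of which 71 could be tested. Of these, 6 rose and 13 fell, 26.8% against 17.3% of all tested genes. The total was 9 without control replicate 1, and 12 without control replicate 3. The median over the 71 was -0.10. Of all tested genes, 9.71% rose and 7.58% fell. The lists were chosen with earlier results known, so nothing is read from these shares or from the order of the lists.

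**Figure D4:**
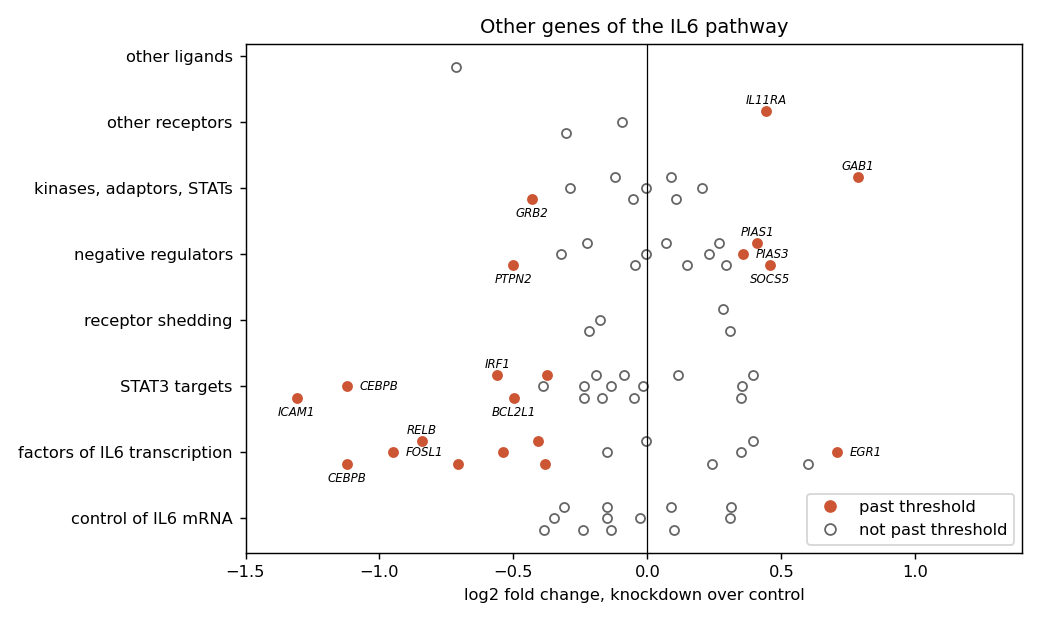
Log2 fold change, knockdown over control (horizontal axis), of the tested genes in each of the 8 pathway lists, filled where the edgeR threshold was passed, with names for those in the text. Most filled points left of 0 are in the lists of STAT3 targets and of factors acting on IL6 transcription, and CEBPB is in both.

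Among 6 other ligands listed, only EBI3, a subunit of interleukin-27, could be tested, and it passed neither in edgeR, at an unadjusted p under 0.05 (0 genes), nor in DESeq2 (0 genes). It held 34, 27 and 53 counts in the controls and 26, 16 and 31 after knockdown, with overlap in CPM and a log2 fold change of -0.71 ± 0.35 (SE). Oncostatin M (OSM) held at most 4 counts in a library. IL27 and IL31 had 0 counts in all.

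Among 3 other receptor genes tested, IL11RA, the binding chain for IL11, rose by 0.44 ± 0.12 on the log2 scale (edgeR adjusted p = 0.0289), from 13.8 ± 1.24 to 18.8 ± 0.202 CPM. Leaving out control replicate 1 or 2 or knockdown replicate 1 or 2 gave 0.38 to 0.44, none of which passed. IL27RA, named after its value was seen, went from 84.7 ± 1.39 to 68.7 ± 4.25 CPM. Its log2 fold change of -0.30 ± 0.10 did not pass (edgeR adjusted p = 0.0529). DESeq2 called 1 gene of this list higher and 1 lower. IL31RA, the third tested, had -0.10 ± 0.15 and did not pass. The CNTF receptor chain CNTFR had at most 1 count in a library.

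Downstream of the receptors, 1 of 9 tested kinases, adaptors and STAT factors rose and 1 fell (9.71% and 7.58% of all tested genes). The list's median was -0.01. GAB1, a docking protein that links gp130 to the ERK and PI3K routes, rose by 0.79 ± 0.22 (edgeR adjusted p = 0.0302), from 99, 133 and 103 counts to 142, 263 and 202. With control replicate 1 or 3 or knockdown replicate 2 or 3 left out it was 0.57 to 0.75 and did not pass. GRB2, the adaptor that couples receptors to RAS, fell from 211 ± 2.60 to 156 ± 4.91 CPM (log2 fold change -0.43 ± 0.09, edgeR adjusted p = 0.00927), and its value was -0.44 without control replicate 1, where it did not pass. The receptor kinases JAK1 (-0.05 ± 0.11), JAK2 (-0.01 ± 0.15) and TYK2 (-0.29 ± 0.13), named for their role after their values were seen, did not pass.

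Negative regulators other than SOCS3 went both ways, with 3 higher and 1 lower of 13 tested (9.71% and 7.58% of all tested genes). Their median was 0.15. SOCS5, a relative of SOCS3, rose by 0.46 ± 0.11 (edgeR adjusted p = 0.0192), and PIAS1 and PIAS3, which restrain STAT factors in the nucleus, rose by 0.41 ± 0.13 and 0.36 ± 0.10 (adjusted p = 0.047 and 0.032). PTPN2, a phosphatase that acts on JAK1 and STAT3, fell by 0.50 ± 0.11 on the log2 scale (edgeR adjusted p = 0.00945). The calls of PIAS1 and PIAS3 were each lost in 5 of 6 fits with a library left out (all but knockdown replicate 1 for PIAS1 and all but knockdown replicate 3 for PIAS3), at 0.31 to 0.45 and 0.32 to 0.35. SOCS5 lost its call without control replicate 1 (0.48) or control replicate 3 (0.37), and PTPN2 without control replicate 1 (-0.49).

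No gene of receptor shedding passed in edgeR, and none in DESeq2, among 4 tested. At an unadjusted p under 0.05 there were 2, both higher: ADAM17, the protease that releases soluble IL6R (0.31 ± 0.11, SE), and ADAM10 (0.28 ± 0.11). Of all 13896 tested genes, 2453 were higher and 2183 lower at that p. ADAM17 and ADAM10 both lay above the controls in every knockdown library, while 39.1% of all tested genes did not overlap in either direction. With the replicate number as a block both passed, at 0.30 and 0.29 (edgeR adjusted p = 0.00746 and 0.00663). In that fit 5062 of all 13896 tested genes passed, and it was not taken as the main design. Knockdown replicate 2 alone gave 0.47 for ADAM17 and 0.35 for ADAM10. Over all alternatives the adjusted p ranged from 0.00746 to 0.291 for ADAM17 and from 0.00663 to 0.315 for ADAM10.

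Genes that STAT3 is known to raise included 18 tested, with a median of -0.18. Of these, 5 fell and none rose, against 7.58% and 9.71% of all tested genes. DESeq2 gave the same counts for the list. At an unadjusted p under 0.05 there were 7 lower and 0 higher, against 2183 and 2453 of all 13896 tested genes. ICAM1, an adhesion molecule for leukocytes, went from 1731, 1969 and 2085 counts to 956, 774 and 734 (log2 fold change -1.31 ± 0.11, edgeR adjusted p = 0.000112). CEBPB, IRF1 and the survival gene BCL2L1 fell by 1.12 ± 0.15, 0.56 ± 0.12 and 0.50 ± 0.10 on the log2 scale, and MYC, named after its value was seen, by 0.38 ± 0.10. ICAM1 and IRF1 are also known targets of NF-kB. The well known STAT3 targets MCL1 (-0.14 ± 0.10), JUNB (-0.09 ± 0.11), PIM1 (0.12 ± 0.16) and CCND1 (-0.17 ± 0.11), named for contrast after their values were seen, did not pass.

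Among the 8 pathway lists, that of factors acting on IL6 transcription had the largest share past the threshold. Nothing is read from that, since the lists were chosen with earlier results known. Of 14 tested, 7 fell and 1 rose, against 7.58% and 9.71% of all tested genes, with a median of -0.27. CEBPB is counted here and among the STAT3 targets. CEBPB, whose product was first described as nuclear factor for IL6, went from 992, 1065 and 1383 counts to 557, 484 and 619, without overlap (log2 fold change -1.12 ± 0.15, edgeR adjusted p = 0.00079). FOSL1, an AP-1 subunit, fell from 208 ± 19.5 to 108 ± 23.7 CPM, and RELB, an NF-kB subunit, from 57.6 ± 6.58 to 32.2 ± 7.55 CPM. Other members that fell, named after their values were seen, were JUN (-0.71 ± 0.10), NFKB2 (-0.54 ± 0.11), RELA (-0.41 ± 0.12) and NFKB1 (-0.38 ± 0.11). Named likewise, REL (0.60 ± 0.44), FOS (0.39 ± 0.19), CEBPD (0.35 ± 0.20), NFKBIZ (-0.15 ± 0.14) and ATF4 (-0.0048 ± 0.11) did not pass. EGR1, an immediate early factor, rose by 0.71 ± 0.12 (edgeR adjusted p = 0.00277). CREB1, which binds the cyclic AMP response element, had 0.24 ± 0.12 and did not pass. Motifs for C/EBP, NF-kB and the response element are those in capitals in the IL6 promoter above. A C/EBP match also lay in the windows of OSMR, which did not pass, and of the second start of LIFR, which rose. The IL6 window, 250 bases before the start, held no match to the AP-1 letters, the motif of FOSL1 and JUN. Bases further upstream were not searched, so an AP-1 site there would not be seen. Whether any of these factors acts at the IL6 promoter in T24 cells was not tested.

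Proteins that set the lifetime of IL6 mRNA showed no call among 12 tested, in edgeR or DESeq2. At an unadjusted p under 0.05 there were 1 higher and 2 lower in the list (2453 and 2183 of all 13896 tested genes). The most abundant over both groups were HNRNPD, an AU-rich element binder (-0.15 ± 0.10, SE), and ZFP36L1, which promotes mRNA decay (0.09 ± 0.10). ZC3H12A, the endonuclease that cleaves IL6 mRNA, named for its role, had -0.39 ± 0.19. KHSRP, a decay factor about as abundant as ZFP36L1 in the controls and named after its value was seen, had -0.24 ± 0.11 with overlap in CPM. It was 1 of the 2 lower at the unadjusted p. The other lower was ZFP36L2 (-0.35 ± 0.12) and the 1 higher was ZFP36 (0.31 ± 0.13). Both were named after their values were seen, and their groups did not overlap.

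The genes nearest to IL6 over the 6 libraries were found by the root mean square difference of log2 CPM, each gene taken relative to its own control mean. IL6 had the lowest log2 fold change, so this distance rests mainly on the size of the fall. Near genes are by construction other strongly reduced genes, and their likeness to IL6 is a description only. They were CXCL1 (0.41), IGFN1 (0.41), MTHFD2 itself (0.42), CCBE1 (0.46) and CXCL8 (0.64). CXCL1 and CXCL8 encode chemokines for neutrophils. CXCL1 held 553, 567 and 634 counts in the controls and 176, 91 and 112 after knockdown, and CXCL8 held 182, 215 and 195 against 78, 33 and 48. For IL6, CXCL1, IGFN1, CCBE1 and CXCL8, knockdown replicate 1 was the highest of the knockdown libraries, but for MTHFD2 it was the lowest. The 30 bases around the NF-kB match before the starts of IL6 (chr7:22727117-22727146) and CXCL1 (chr4:73869304-73869333), both on the plus strand, are set side by side with the match in capitals. In CXCL1 the motif matches on both strands in overlapping positions. CXCL1 alone of the 5 nearest genes matched the NF-kB letters searched. CXCL8 matched AP-1 only, and the windows of IGFN1, MTHFD2 and CCBE1 matched none of the motifs searched. Sites that depart from the letters were not counted: the CXCL8 window holds tggaatttcc, which differs from the NF-kB letters at its first base. A missing match is therefore not evidence that a window lacks an NF-kB site. IL6ST, which did not pass the test, also held an NF-kB match.

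IL6: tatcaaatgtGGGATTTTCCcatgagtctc
CXCL1: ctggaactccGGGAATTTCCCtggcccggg

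**Figure D5:**
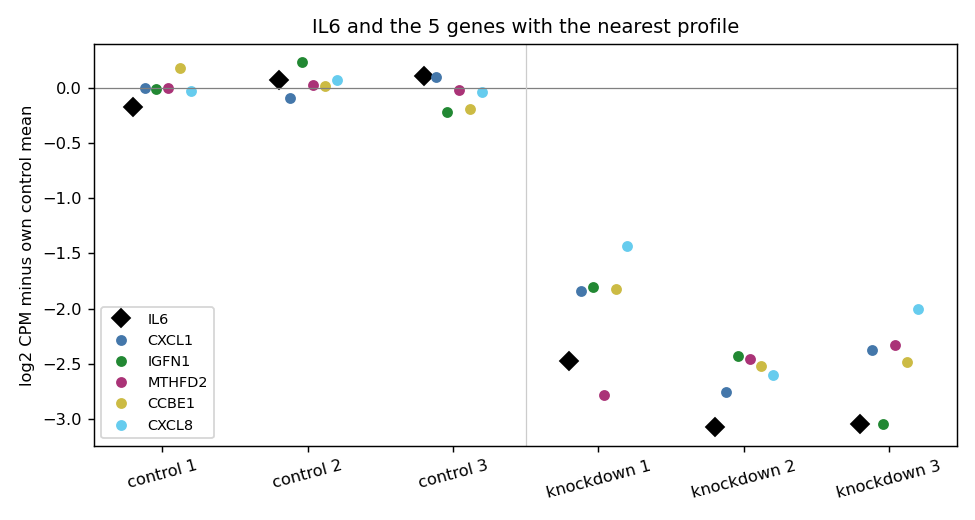
Log2 CPM minus the gene's own control mean (vertical axis) in each library for IL6 and the 5 genes with the nearest profile. All 6 genes lie within 0.23 of 0 in the controls and between -3.07 and -1.43 in the knockdown libraries, with IL6 at -2.48, -3.07 and -3.04.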

How the data were processed

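RNA was sequenced from 3 control and 3 MTHFD2 knockdown libraries of T24 cells, grouped by their titles. The deposited table holds the authors' read counts, whole numbers by gene symbol with no normalization, and every column was used. HISAT2 2.0.4 and GRCh38 were used per the submitters' processing notes, and for the counting tool, annotation and strandedness the status is: not given in the sources used here.

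Genes were kept by filterByExpr, scaled by TMM and tested over all 13896 with edgeR 4.0.16 in R 4.3.3 (quasi-likelihood F test, robust, Benjamini-Hochberg adjusted p under 0.05). The SE is the size of the log2 fold change divided by the square root of F, and 2 was the prior count for log2 CPM. The procedure was tested on simulated data. The floor for a count of 0 covers counting error only, while SD and SE values include the spread between libraries.

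The members and lists were chosen with earlier results of these data known, and 1 gene is not reported here. Named genes are the members, MTHFD2, the 5 genes nearest to IL6 (mean of at least 2 log2 CPM, clone names left out), and up to 4 genes past the threshold per pathway list, with each direction present, or the 2 most abundant where none passed. Other names are stated as chosen after their values were seen, or are cell markers or genes with few counts. The alternatives comprised DESeq2 1.42.0, RLE scaling, a stricter low-count filter and none, a block for the replicate number, a threshold of 0.01, each library left out, and knockdown replicate 2 alone. Genome positions came from GENCODE 29 and promoters from RefSeq, both on GRCh38. Replicates differed by more than sampling noise (at least 2.56, as chi-square over its degrees of freedom), so each library counted as 1 sample.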

Additional observations from a re-analysis of the deposited data

How the results depend on the processing

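RLE scaling, DESeq2 and both other low-count filters gave the same calls for the members, except that IL11 was left untested by the filter of at least 1 CPM in 3 libraries. The count over all tested genes, 2402, was 986 to 2645 with a library left out, 4432 with knockdown replicate 2 alone and 749 at a threshold of 0.01. The member count, 5, was 2 to 5 with a library left out and 2 at 0.01. For pathway genes the count of 19 was 9 to 21 with a library left out and 11 at 0.01. With a library left out, log2 fold changes ranged from -0.46 to -0.26 for LIF, -0.86 to -0.48 for CLCF1, -0.54 to -0.39 for SOCS3, -0.09 to 0.34 for IL11, -0.01 to 0.16 for IL6ST and -0.01 to 0.29 for OSMR. Signs changed for IL11 without control replicate 1 (-0.0912) or knockdown replicate 1 (-0.08), for IL6ST without control replicate 3 (-0.0067) or knockdown replicate 2 (-0.0086) and for OSMR without knockdown replicate 2 (-0.0062). Fits without a library rest on fewer samples. With knockdown replicate 2 alone OSMR was at 0.40, a fit that takes its spread from the controls, and the cause was not tested.

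With the replicate number as a block, 5062 of all genes and 36 pathway genes passed, and STAT3 passed at -0.24 (adjusted p = 0.0259). Deviations of same-numbered libraries correlated across genes at -0.02, 0.30 and 0.35 for replicates 1, 2 and 3. Replicates 2 and 3 each correlated best with their own number, but control replicate 1 did so with knockdown replicate 2 (0.16), and the labels state no pairing, so the block was not taken as the main design. The block changed no other member's call. Depth limited IL11 and IL6R, with at most 58 counts in a library.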

Other observations

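Acute phase genes, the classical targets of IL6 in liver, had few or no counts in T24 cells. CRP and FGA had 0 counts in every library, and HP, LBP, SAA2, FGB, FGG and SERPINA3 had at most 5 in any library. A2M held 37, 33 and 49 counts in the controls and 30, 50 and 41 after knockdown, which overlapped, and its log2 fold change of -0.05 did not pass. SAA1 held 15, 7 and 21 counts in the controls and 1, 6 and 1 after knockdown, too few to be tested. The SAA1 groups did not overlap in CPM, and these genes were named after their values were seen.

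The ligand LIF and its receptor LIFR had log2 fold changes of opposite sign, -0.36 ± 0.11 and 1.16 ± 0.18 (SE). The difference between them was not tested.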
